A study of Homo sapiens with 6 samples.

Results

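The genes described are L-plastin (LCP1) and its relatives PLS1 and PLS3, the intermediate filament protein vimentin (VIM), and the actin-binding proteins TPM1, TPM2, CALD1, TAGLN and COTL1. They were taken by gene symbol from the array annotation, 9 genes of 14884 with a symbol, and all 9 were measured, on 12 of the 53616 features of the array. Where a gene had several features, the one with the highest mean over the 6 arrays stands for it, and every feature of VIM is shown. The members were selected on the log2 difference between SW620 and SW480, which was known when they were chosen, so their differences are given as a description, without a p-value.

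The arrays hold total RNA from SW620 spheroids, 3 arrays, and from SW480 spheroids, 3 arrays. Both are established human colorectal cancer lines, SW620 from a lymph node metastasis and SW480 from a primary tumour, and both were kept as sphere cultures in medium that held growth factors but no serum. The study asked how the tumour-initiating compartment differs between the lines, but each group is 1 cell line and no sorted fraction or adherent culture is among the 6 arrays. By the submitters' account, the 3 arrays for each line are technical replicates, so each line is in effect 1 sample. No spread between cultures was measured. Every SD, standard error and p-value below, with its n of arrays, compares the arrays of these RNA samples and not the lines at large, and the number of arrays limits even that precision. In bulk RNA, a higher share of cells that carry a transcript and more transcript per cell cannot be told apart.

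Over all features, r was 0.988 to 0.992 between 2 arrays of 1 line and 0.963 to 0.965 between arrays of SW620 and SW480. Of the epithelial markers, EPCAM averaged 9.61 in SW620 and 9.71 in SW480, and KRT18 averaged 11.7 in SW620 and 11.6 in SW480, on the log2 scale. The median feature, which is used below as a guide to the dim end of the array, lay at 4.065. KRT20 and CDX1 were at or below it in both lines, with means of 4.06 and 3.80 in SW620 and of 4.01 and 3.84 in SW480. Of 10 measured epithelial markers, CEACAM5, VIL1, KRT19 and KRT8 were higher in SW620 (by 2.42, 0.62, 0.51 and 0.40), CDX2 was lower (-1.54) and 5 did not pass.

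Cells draw their shape from actin filaments and intermediate filaments. Plastins tie actin filaments into tight parallel bundles, and tropomyosins lie along the filament and control which motors and severing proteins reach it. L-plastin is the plastin of white blood cells and is also found in many carcinomas, T-plastin (PLS3) is the form of most solid tissues, and PLS1 is the plastin of the microvilli of intestinal epithelium. Vimentin forms the intermediate filaments of mesenchymal cells and is widely used as a marker of epithelial cells that have taken on mesenchymal features.

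LCP1 was the member that differed most between the lines, at 25.1-fold higher in SW620, and TPM2 followed at 4.51-fold higher. PLS3 and VIM were a little over 2-fold higher in SW620, PLS1 was 1.57-fold higher, and TPM1, CALD1 and TAGLN were between 1.20-fold and 1.23-fold higher. COTL1 was the exception, at 2.78-fold lower in SW620. In the fit over all genes 8 members were higher and 1 was lower at an adjusted p below 0.05 in limma's moderated test, where 35.6% of all genes passed. The lines' arrays did not overlap for any of the 9, as was so for 45.7% of all genes. At least a 2-fold difference was seen for 4 members higher in SW620 (2.32% of all genes) and 1 lower (3.76% of all genes). Nothing is read from these counts, since the choice of members used this comparison.

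**Figure D1:**
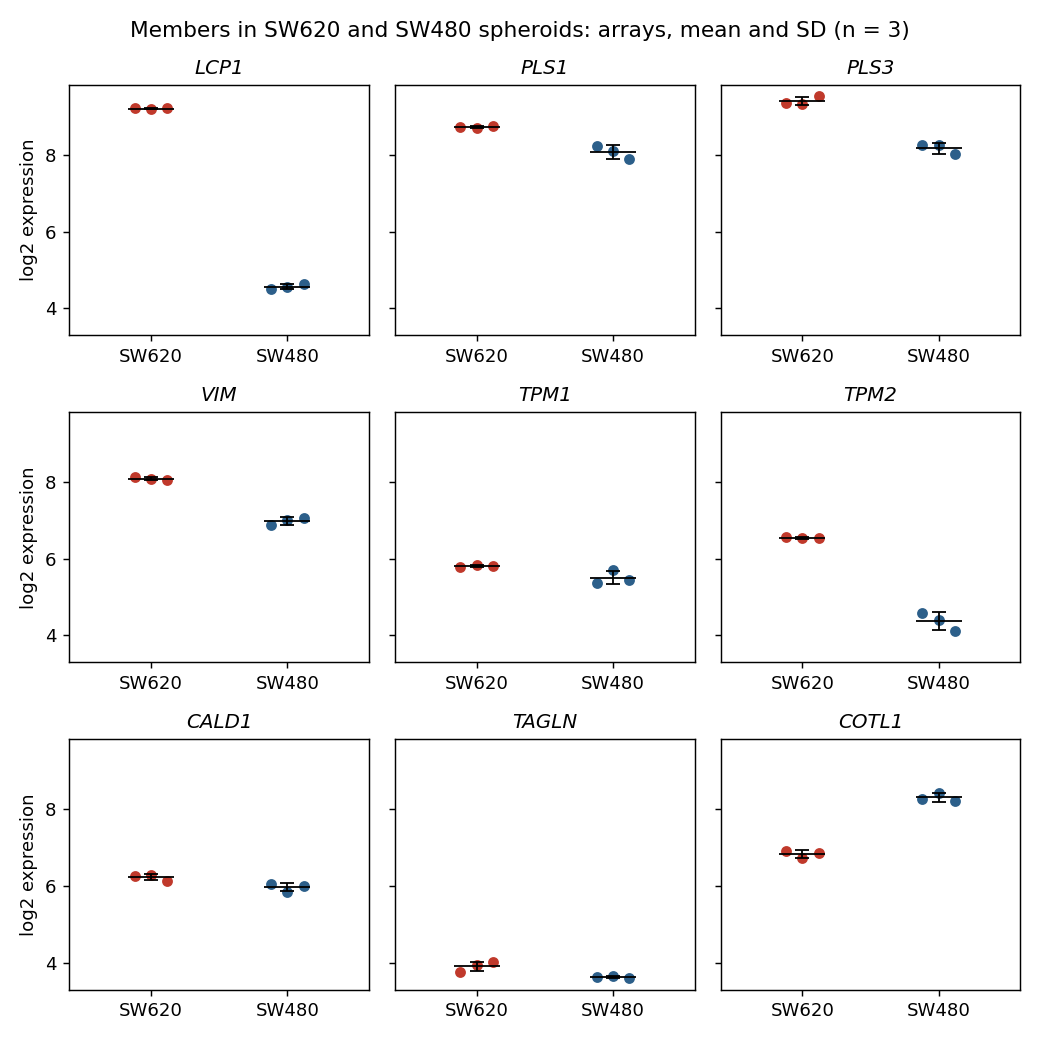
Log2 expression of the 9 genes on each array (points), with the mean and SD of 3 arrays, in SW620 (left, red) and SW480 (right, blue). LCP1 has the widest gap, with 9.19 on the lowest SW620 array against 4.62 on the highest SW480 array, and COTL1 is the only gene drawn lower in SW620.

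The regions before the transcription starts of LCP1, VIM and TPM2 are shown because these members span the range of raised genes from the widest gap to a 2-fold one. Each is the stretch of 250 bases before a RefSeq start (GRCh38.p14), written 5′ to 3′ on the gene's strand, with CG dinucleotides in capitals. They lie at chr13:46182178-46182427 (minus strand) for LCP1, chr10:17227991-17228240 (plus strand) for VIM and chr9:35690057-35690306 (minus strand) for TPM2.
LCP1: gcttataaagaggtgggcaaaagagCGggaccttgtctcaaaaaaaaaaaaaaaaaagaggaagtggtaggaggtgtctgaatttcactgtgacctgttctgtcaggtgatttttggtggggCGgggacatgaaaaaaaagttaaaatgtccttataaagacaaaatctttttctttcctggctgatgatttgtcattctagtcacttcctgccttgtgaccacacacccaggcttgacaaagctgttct
VIM: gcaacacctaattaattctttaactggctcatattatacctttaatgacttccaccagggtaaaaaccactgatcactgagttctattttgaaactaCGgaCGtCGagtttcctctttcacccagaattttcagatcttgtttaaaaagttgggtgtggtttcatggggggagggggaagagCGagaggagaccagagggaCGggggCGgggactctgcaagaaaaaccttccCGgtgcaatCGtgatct
TPM2: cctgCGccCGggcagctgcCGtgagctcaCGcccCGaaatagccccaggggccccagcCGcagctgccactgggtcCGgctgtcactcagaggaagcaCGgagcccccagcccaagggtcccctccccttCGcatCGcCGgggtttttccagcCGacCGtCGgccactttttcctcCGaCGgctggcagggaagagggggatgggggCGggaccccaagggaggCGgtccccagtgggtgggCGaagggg

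The LCP1 stretch holds 2 CG dinucleotides, and 14.7% of the 35116 promoters in the RefSeq table hold fewer. VIM has 8 (43.7% hold fewer) and this start of TPM2 has 19 (65.4% hold fewer). COTL1, the member lower in SW620, has 25 (78.4% hold fewer). Over the same 250 bases, 6 motifs were searched on both strands in the 15 promoters listed for 8 members; TAGLN was not among them. The CArG box, the motif bound by serum response factor, which drives many genes of contractile filaments, was searched without mismatches. It had no match in the 15, and 1.16% of all promoters hold one. At so low a share, no match in 15 promoters is the usual outcome, so nothing is read from it. The AP-1 motif TGANTCA matched in 1 (6.57% of all promoters), a CALD1 promoter, and the E-box CACCTG in 1 (17.5%), that of LCP1. The GC box GGGCGG matched in 9 (42.6%), the TEAD motif CATTCC in 4 (11.9%) and TATAAA in 2 (10.7%). The 15 are not independent, since several belong to the same gene. The TPM2 stretches overlap and share a GC box, and every TEAD match lies in a promoter of PLS1 or CALD1. A match describes these letters and not a bound site, and motifs outside this window were not searched.

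Among the plastins, LCP1 read 9.21, 9.19 and 9.22 on the SW620 arrays, against 4.49, 4.56 and 4.62 on the SW480 arrays. All 3 SW620 arrays lay far above all 3 SW480 arrays, with 4.57 log2 units between the nearest of them. The means were 9.21 ± 0.0114 in SW620 and 4.56 ± 0.0676 in SW480 (SD, n = 3 each), a log2 difference of 4.65 with a standard error of 0.0810. The SW480 mean stood not far above the median feature (4.065), so the fold rests on a low level in that line, and the background step of the array processing can make such a fold too small. Among all 14884 genes this difference ranked 4 from the highest.

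PLS3, which bundles actin in most non-blood cells, read 9.35, 9.33 and 9.53 in SW620, against 8.25, 8.26 and 8.01 in SW480. Its groups were 1.07 apart at their nearest, and the difference was 1.23 (standard error 0.0973), or 2.34-fold. PLS1, the intestinal microvillus plastin, read 8.72, 8.69 and 8.76 in SW620, against 8.23, 8.10 and 7.89 in SW480. The SW480 arrays of PLS1 were the more scattered (SD 0.171, against 0.0349 in SW620), yet the groups stayed 0.46 apart and differed by 0.65 (standard error 0.0967). Thus all 3 plastins were higher in SW620, and PLS1 and PLS3 were well above the median feature in both lines, whereas LCP1 came near it in SW480.

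VIM was measured on 3 features, and on each of them the SW620 arrays lay above the SW480 arrays. The brightest read 8.13, 8.08 and 8.06 in SW620, against 6.88, 7.02 and 7.06 in SW480, a difference of 1.11 with a standard error of 0.0847 (2.15-fold). The middle feature read 6.79, 6.54 and 6.55 in SW620, against 5.66, 5.52 and 4.97 in SW480, a difference of 1.24 (2.37-fold) with 1 SW480 array below the other pair. The dimmest read 6.13, 6.40 and 6.51 in SW620, against 5.58, 5.40 and 5.26 in SW480, a difference of 0.93 (1.91-fold).

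The features of VIM differ in what surrounds them on the array. Features with consecutive numbers belong mostly to genes of the same strand (94.2% of 8767 such pairs on a chromosome). Of the genes with a known strand on the same chromosome whose features carry the nearest numbers, up to 10 on each side, 13 of 13 lay on the strand of VIM for the brightest feature. For the middle feature it was 2 of 15, and for the dimmest 1 of 15. The deposited table does not state the strand a feature reads, and whether the dimmer pair reads VIM itself or RNA from the opposite strand was not tested.

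**Figure D2:**
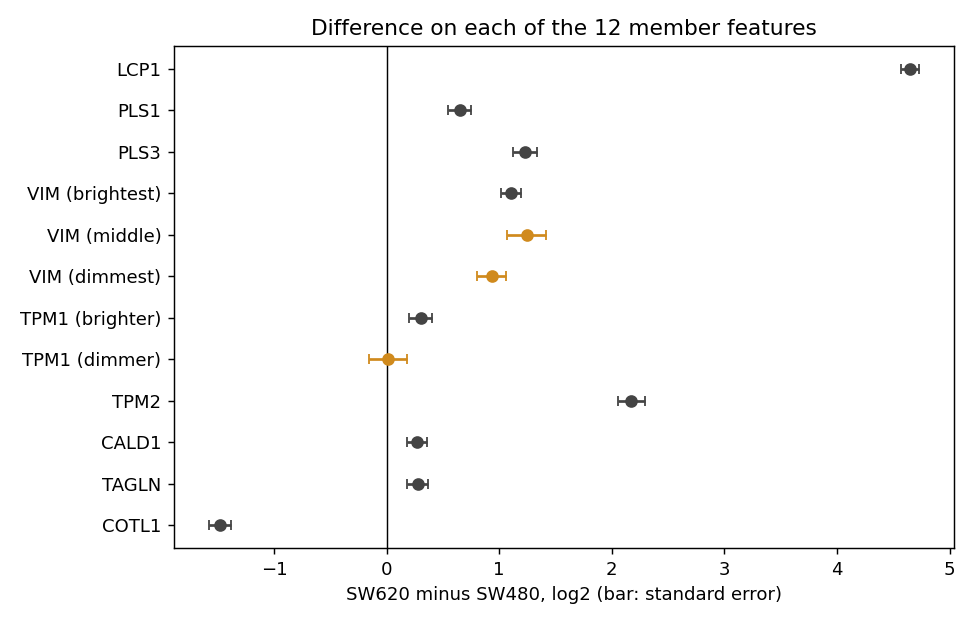
Log2 difference, SW620 minus SW480, on each of the 12 features of the 9 genes, with its standard error from a fit over all features; features that do not stand for their gene are orange. The 3 features of VIM fall between 0.93 and 1.24, and the dimmer feature of TPM1 lies at 0.0139.

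TPM2, the beta-tropomyosin best known from muscle, had 1 feature. It read 6.57, 6.53 and 6.53 in SW620, against 4.58, 4.39 and 4.12 in SW480. The SW620 arrays nearly coincided (SD 0.0214) while the SW480 arrays were spread (SD 0.231), and the lowest SW480 array was close to the median feature. The groups were 1.94 apart at their nearest and differed by 2.17 (standard error 0.109), the difference with rank 65 among all genes.

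The other genes of the tropomyosin-bound filament had smaller differences. TPM1, the alpha-tropomyosin, read 5.78, 5.85 and 5.81 in SW620, against 5.38, 5.70 and 5.45 in SW480, so that its groups were separated by 0.082 only. Its difference was 0.30 (standard error 0.0961) on this feature. A dimmer feature of TPM1 read 3.86, 3.39 and 3.60 in SW620, against 3.32, 3.60 and 3.89 in SW480, so the lines overlapped there. None of the 18 nearest-numbered genes lay on the strand of TPM1 for that dimmer feature, against 16 of 18 for the brighter one. The mean over both features differed by 0.16 and did not pass, which leaves 8 members past the threshold.

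CALD1, caldesmon, which binds actin, tropomyosin and calmodulin and restrains myosin, read 6.27, 6.29 and 6.13 in SW620, against 6.04, 5.85 and 5.99 in SW480. Its nearest arrays were 0.0915 apart and its difference was 0.27 (standard error 0.0889). TAGLN, transgelin, an actin-binding protein of smooth muscle, read 3.76, 3.94 and 4.003 in SW620, against 3.62, 3.66 and 3.59 in SW480. All 6 values of TAGLN were below the median feature, and the difference was 0.28 (standard error 0.0889). With gaps this narrow, single arrays decided the side of the threshold for TPM1, CALD1 and TAGLN. Without SW620 replicate 2 or without SW480 replicate 3, none of these 3 genes passed, and 5 members in place of 8 were called higher. With any other single array left out, 6 or 7 were.

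COTL1, coactosin-like protein, binds actin filaments and also 5-lipoxygenase. It read 6.92, 6.73 and 6.85 in SW620, against 8.27, 8.44 and 8.23 in SW480. Every SW620 array was thus at least 1.31 below every SW480 array. The means were 6.83 ± 0.0976 in SW620 and 8.31 ± 0.111 in SW480 (SD, n = 3 each), a difference of -1.48 with a standard error of 0.0917.

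Over the 6 arrays, the genes whose values followed those of LCP1 most closely were SOX2 (Pearson r = 0.9998), COG8, ERLN, LINC00460 and MAML2 (0.9996). Their differences were 2.88, 1.24, 3.03, 4.83 and 2.86, all higher in SW620. The 6 points are 2 lines of 3 arrays each, so any gene with a gap between the lines that is wide for its spread comes near 1, and 350 genes exceeded an r of 0.99. Among the members VIM had an r of 0.9959 with LCP1, TPM2 0.9903, PLS3 0.9844 and PLS1 0.9501, TAGLN, CALD1 and TPM1 had 0.876, 0.868 and 0.839, and COTL1 had -0.993.

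The remaining filament machinery was divided between the lines. Of 111 measured genes of 7 lists of filament proteins and their partners, without the members, 26 were higher in SW620, 27 were lower and 58 did not pass (47.7% passed, against 35.6% of all genes). Their median difference was 0.0264, against 0.0132 over all genes. With 2 further lists, one of serum response factor with its cofactors and targets and one of factors of epithelial-mesenchymal transition, 30 of 135 genes were higher, 33 were lower and 72 did not pass. No gene of the list of actin isoforms was found by symbol among the annotated features, so that list was not analysed here. Whether features without a symbol read actin is not known from these data.

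Among 14 other bundlers and crosslinkers, 4 were higher, 3 were lower and 7 did not pass, with a median of 0.0775. IQGAP2, a scaffold that binds actin and the GTPases CDC42 and RAC1, read 3.63, 3.53 and 3.68 in SW620, against 6.82, 6.90 and 6.74 in SW480. That is 9.20-fold lower in SW620 (adjusted p = 1.75e-11), to a level below the median feature. The lower genes also included LASP1, an adhesion and actin protein (1.63-fold lower, adjusted p = 2.38e-05). SVIL, supervillin, which links actin and myosin to membranes, was 2.51-fold higher (adjusted p = 1.29e-07). VIL1, villin, which bundles the actin of intestinal microvilli, was 1.54-fold higher (adjusted p = 0.000121).

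Of 5 other tropomyosin, calponin and transgelin genes, 2 were higher, 0 were lower (1 at an unadjusted p below 0.05 in limma) and 3 did not pass, with a median of 0.24. The higher count was 1 without SW620 replicate 2 or SW480 replicate 3, and the lower count was 1 without SW620 replicate 2 and under cyclic loess, the filter at the median feature and the trended prior. TAGLN2, the transgelin of non-muscle cells, was higher by 0.31 on the log2 scale (adjusted p = 0.0187), a call lost without SW620 replicate 1, SW620 replicate 2 or SW480 replicate 3. SMTN, smoothelin, a smooth muscle filament protein, was higher by 0.30 (adjusted p = 0.0117). TPM4, named after its values were seen, differed by -0.21 (adjusted p = 0.0675).

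Of 13 other severing, depolymerising and monomer-binding genes, 2 were higher, 4 were lower and 7 did not pass, with a median of -0.0693. COTL1 was placed in this list, although it is described above as a binder of filaments. The higher count was 1 without SW620 replicate 1 or 3 or SW480 replicate 1 or 2, and under cyclic loess and the filter at the median feature. CFL2, the muscle cofilin, which severs filaments, was 2.45-fold lower (adjusted p = 2.11e-07). The profilin PFN2, which delivers actin monomers, was 2.36-fold lower (adjusted p = 1.21e-07), whereas the widely expressed PFN1 was 1.51-fold higher (adjusted p = 0.000173). GSN, the calcium-dependent severing protein gelsolin, was 1.81-fold lower (adjusted p = 8.78e-06).

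Of 14 genes that cap filament ends, 2 were higher, 4 were lower and 8 did not pass, with a median of 0.00189. The higher count was 1 without any one of the SW620 arrays or without SW480 replicate 3. It ran from 1 to 3 with 1 array left out and from 2 to 3 under the other settings. The tropomodulins bind tropomyosin at the slow-growing end. TMOD1 read 4.59, 4.75 and 4.36 in SW620, against 6.75, 6.69 and 6.64 in SW480, or 4.37-fold lower in SW620 (adjusted p = 3.40e-09), and TMOD2 was 2.45-fold lower (adjusted p = 3.87e-07). EPS8, which caps and bundles filaments in microvilli, was 2.30-fold higher (adjusted p = 1.03e-07). ADD3, an adducin of the membrane skeleton, was 1.41-fold lower (adjusted p = 0.000757).

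Nucleation genes went both ways, with 8 higher, 7 lower and 14 not passing of 29, and a median of 0.10. At an unadjusted p below 0.05 in limma, 12 were higher and 7 lower. Other settings with all arrays kept gave 7 to 10 higher and 5 to 7 lower. With 1 array left out, 6 to 8 were higher and 6 to 7 lower. WASL, the activator N-WASP of the Arp2/3 complex, was 2.23-fold lower in SW620 (adjusted p = 1.24e-07), and the nucleator SPIRE1 was 1.88-fold lower (adjusted p = 3.58e-06). The formin FHOD1 was 1.99-fold higher (adjusted p = 2.13e-06), and cortactin, CTTN, which steadies branches of actin, was 1.48-fold higher (adjusted p = 8.17e-05).

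Of 23 genes that link actin to membranes and adhesions, 5 were higher, 6 were lower and 12 did not pass, with a median of 0.000547. TRIP6, a LIM protein of adhesion sites related to zyxin, read 3.35, 3.50 and 3.68 in SW620, against 6.38, 6.18 and 6.12 in SW480. It was 6.57-fold lower (adjusted p = 4.26e-10), with the SW620 mean below the median feature. TGFB1I1, the paxillin relative Hic-5, was 2.49-fold lower (adjusted p = 1.02e-05). VCL, vinculin, which couples talin to actin, was 2.18-fold higher (adjusted p = 5.67e-07), and ezrin, EZR, which ties actin to the membrane of microvilli, was 1.86-fold higher (adjusted p = 1.58e-06).

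The relatives and linkers of vimentin were split. Of 13 other intermediate filament and linker genes, 3 were higher, 3 were lower and 7 did not pass, with a median of 0.018. The lower count was 1 without SW620 replicate 2 or SW480 replicate 2, and 2 under the filter at the median feature. DST, dystonin, a linker between intermediate filaments, actin and microtubules, read 8.05, 7.93 and 8.004 in SW620, against 5.33, 5.32 and 5.32 in SW480. Its 6.36-fold rise (2.67, adjusted p = 5.02e-11) was wider than that of VIM, although the difference between the genes was not tested. PPL, periplakin, was 1.66-fold higher (adjusted p = 9.48e-06). DES, desmin, differed by -0.43 (adjusted p = 0.00208) and the linker EPPK1 by -0.34 (adjusted p = 0.0215). EPPK1 had means below the median feature in both lines (3.54 in SW620, 3.88 in SW480). DES was below it in SW620 only (4.002, against 4.43 in SW480). The call of EPPK1 was lost without SW620 replicate 1, SW620 replicate 2 or SW480 replicate 2. The nuclear lamin LMNA, the linker PLEC and the progenitor filament NES, named after their values were seen, differed by 0.0111, -0.11 and 0.0278 and did not pass.

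**Figure D3:**
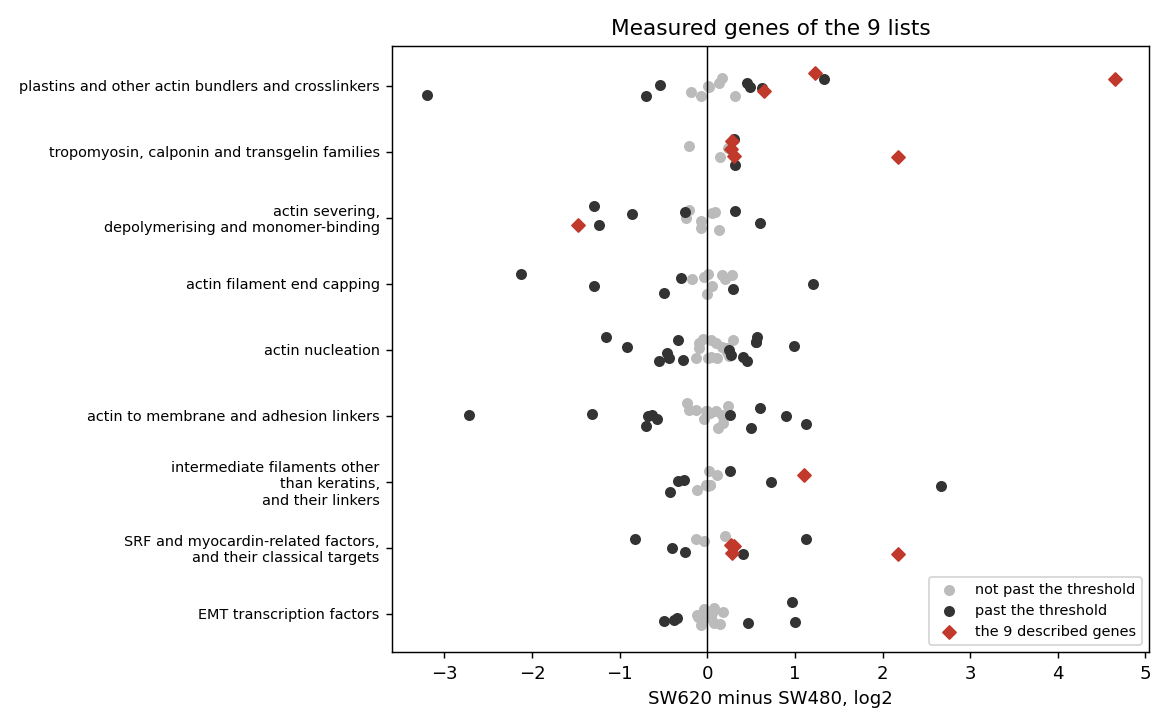
Log2 difference, SW620 minus SW480, of each measured gene of 9 lists (7 of filament proteins and their partners, 1 of serum response factor and its targets, 1 of factors of epithelial-mesenchymal transition), 1 point a gene, with the 9 described genes as red diamonds, other genes past an adjusted p of 0.05 in black and the rest in grey. LCP1 at 4.65 and IQGAP2 at -3.20 mark the ends, and points are jittered vertically within a list.

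TPM1, TPM2, CALD1 and TAGLN are classical targets of serum response factor and its myocardin-related cofactors. Of 8 other genes of that list, 2 were higher, 3 were lower and 3 did not pass, with a median of -0.0857. The cofactor MRTFA was 1.33-fold higher (adjusted p = 0.00231) and VCL is the other raised gene. EGR1, an immediate-early gene, was 1.78-fold lower (adjusted p = 1.30e-05), and MYOCD differed by -0.41 (adjusted p = 0.00237) at means below the median feature in both lines. SRF itself differed by 0.20 (adjusted p = 0.0776) and CCN2 by -0.0411 (adjusted p = 0.796), both named after their values were seen. CCN2 averaged 3.83 in SW620 and 3.87 in SW480, below the median feature in both lines.

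VIM is often read together with the factors that drive epithelial-mesenchymal transition. Of 17 such factors and their epithelial opponents, 3 were higher, 3 were lower and 11 did not pass, with a median of 0.0426. The lower count was 1 without SW620 replicate 1. ESRP1 and ESRP2, the splicing regulators of epithelial cells, were 1.998-fold and 1.957-fold higher in SW620 (adjusted p = 9.28e-07 and 3.57e-06), and TCF3, which encodes E2A, was 1.38-fold higher (adjusted p = 0.00185). OVOL2, an epithelial repressor, was 1.41-fold lower (adjusted p = 0.000481). The drivers SNAI2 and PRRX1, named after their values were seen, were the other lower genes, with differences of -0.35 and -0.38 (adjusted p = 0.0212 and 0.0193), PRRX1 at means of 3.86 in SW620 and 4.24 in SW480. ZEB1, ZEB2, SNAI1 and TWIST1, named after their values were seen, differed by -0.0216, 0.0787, 0.0481 and -0.0349 and did not pass. ZEB1 and SNAI1 had means above the median feature in both lines. ZEB2 and TWIST1 had means below it in both lines, so their small differences are not read as equal expression.

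LCP1 is best known from leukocytes, so markers of other cells were measured beside it. Of 10 measured of 20 leukocyte markers, CD68 was higher by 0.43 (adjusted p = 0.00112), LAPTM5 differed by -0.41 (adjusted p = 0.00132) and 8 did not pass. Both lay above the median feature, CD68 at 6.35 in SW620 and 5.92 in SW480 and LAPTM5 at 5.84 in SW620 and 6.25 in SW480. CD53, TYROBP, CD14, LCP2, CD2 and HCLS1 had means below the median feature in both lines, with CD53 at 3.67 in SW620 and 3.54 in SW480. CSF1R lay above it in both, at 4.60 in SW620 and 4.54 in SW480. SPI1 averaged 4.10 in SW620, just above it, and 3.92 in SW480. The mean level of the leukocyte list lay between 4.23 and 4.30 on the SW620 arrays and between 4.22 and 4.24 on the SW480 arrays. PTPRC was not analysed here.

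Of 5 measured of 15 fibroblast and smooth muscle markers, LUM, a matrix proteoglycan, was 9.34-fold higher in SW620, with means of 7.95 in SW620 and 4.73 in SW480 (adjusted p = 3.55e-09), DES was lower, and DCN, THY1 and LMOD1 did not pass. The mean level of this list lay between 4.74 and 4.81 on the SW620 arrays and between 4.08 and 4.18 on the SW480 arrays. Without LUM, left out after its values were seen, the other 4 genes differed by -0.43 to 0.28. Their mean level lay between 3.96 and 4.03 on the SW620 arrays and between 3.93 and 4.04 on the SW480 arrays. DCN, a defining gene of fibroblasts, averaged 3.26 in SW620 and 3.09 in SW480, below the median feature. THY1 lay above it in both lines, at 4.40 in SW620 and 4.43 in SW480. LMOD1 was above it in SW620 only (4.29, against 4.01 in SW480), and DES in SW480 only (4.43, against 4.002 in SW620). None of 6 measured endothelial markers passed limma's test (0 had an unadjusted p below 0.05), and the list's mean level lay between 3.65 and 3.74 in SW620 and between 3.65 and 3.70 in SW480.

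The members lie on 9 different chromosomes. Measured genes beside VIM and TPM2 went both ways, and those beside LCP1 were lower or did not pass. Over all genes, 16% were higher in SW620 and 19.5% were lower. Of the 3 nearest measured protein-coding genes on each side of LCP1 on chromosome 13, none was higher in SW620. ZC3H13, ESD and MED4 were lower, by 1.52-fold, 1.37-fold and 1.38-fold (adjusted p = 6.17e-05, 0.00149 and 0.000579). SIAH3, CPB2 and LRCH1 differed by -0.00576, 0.0121 (adjusted p = 0.941) and -0.19 and did not pass. SIAH3 averaged 3.57 in SW620 and 3.58 in SW480, and CPB2 averaged 3.51 in SW620 and 3.49 in SW480, all below the median feature. MED4, the farthest neighbour, starts 1949.8 kb from LCP1.

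Beside VIM on chromosome 10, TRDMT1, a tRNA methyltransferase, was 1.56-fold higher (adjusted p = 0.000364) and RSU1, an adhesion protein, was 1.21-fold lower (adjusted p = 0.0181; 0.0782 without SW480 replicate 3). CUBN, STAM, TMEM236 and PLXDC2 differed by between -0.12 and 0.10 and did not pass. CUBN and PLXDC2 had means below the median feature in both lines, and PLXDC2 starts 2588.2 kb from VIM. Beside TPM2 on chromosome 9, SIT1 was 3.10-fold higher (adjusted p = 5.10e-08), on a SW480 mean of 3.21 below the median feature. ARHGEF39, CREB3 and RGP1 were 1.25-fold, 1.49-fold and 1.43-fold lower (adjusted p = 0.00644, 0.000124 and 0.000396), and CCDC107 and the talin gene TLN1 differed by -0.11 and -0.21 and did not pass.

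**Figure D4:**
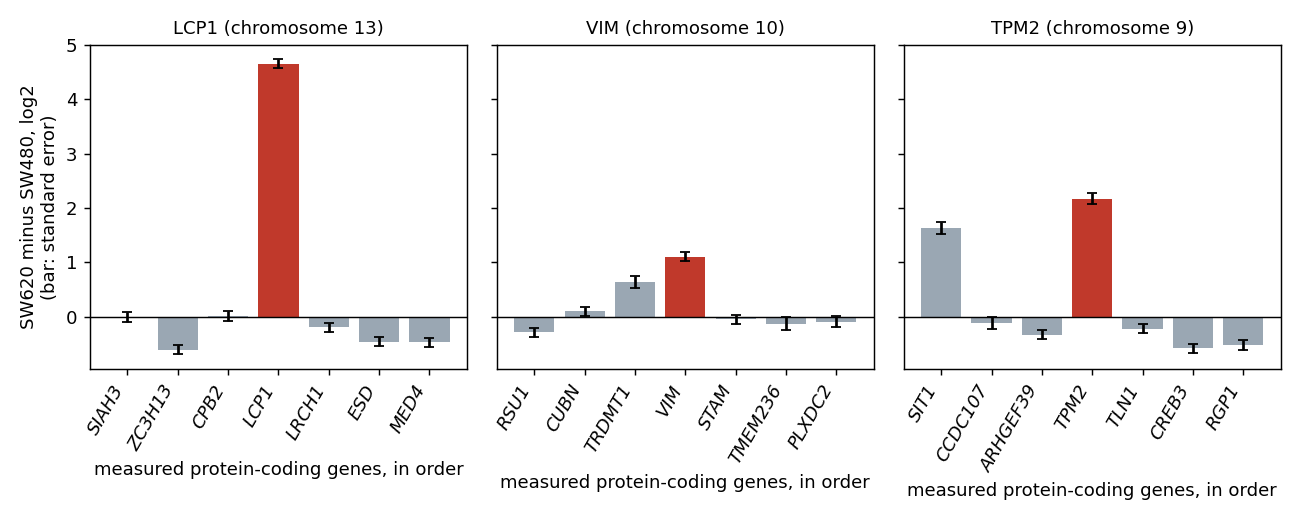
Log2 difference, SW620 minus SW480, with its standard error, of LCP1, VIM and TPM2 (red) and of the 3 nearest measured protein-coding genes on each side, in chromosomal order. LCP1 stands at 4.65 between neighbours that run from -0.61 to 0.0121.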

How the data were processed

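The authors deposited a table of log2 expression values with a column for each array. Partek and RMA made it, per the submitters' processing notes, with versions and settings not given in the sources used here. This method subtracts background, makes the arrays' distributions alike and summarises the probes of a feature. No source states the log base; values between 1.99 and 13.9 were read as log2, and every fold rests on that. Platform annotation gave 1 gene symbol to 16098 of 53616 features, several to 0 and none here to 37518. All 16098 matched a human gene table (GRCh38.p14), used for current symbols and gene order.

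The feature with the highest mean stood for each of 779 genes with several, leaving 14884 genes, with no filter on dim features. The test was limma 3.58.1 (R 4.3.3; lmFit, eBayes, SW620 minus SW480, two-sided, Benjamini-Hochberg over all genes, threshold 0.05). Data were simulated for SW620 against SW480 (14884 genes), with 50 genes shifted at each of 0.5, 1, 2 and 3 log2 units. The fit found 34 of 50 genes shifted by 0.5 and 48 of 50 shifted by 1, with 4 false calls among the unchanged genes. The shifted share was far below the 35.6% of genes that passed in the arrays, so this recovery need not hold there. Members, lists and tests were chosen with earlier results of these data known. Named are all members, up to 4 changed genes a list with the largest difference, the 5 genes most like LCP1, 3 neighbours on each side of LCP1, VIM and TPM2, and changed markers. Same-numbered arrays of the lines did not deviate together (r of 0.0209, -0.0107 and -0.00355), so the arrays were not treated as pairs. Promoters came from RefSeq.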

Additional observations from a re-analysis of the deposited data

How the results depend on the processing

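Tried were centring on the median or the 75th percentile, cyclic loess, a second quantile normalization, 2 filters on dim features, a trended and robust prior, averaged features, the replicate block, an adjusted p below 0.01 and leaving out each array in turn. All 9 members kept their direction in each alternative that gave them a value; TAGLN has none under the filter at the median feature. LCP1 ran from 4.61 to 4.68, VIM from 1.05 to 1.14, TPM2 from 2.05 to 2.28 and COTL1 from -1.52 to -1.41. TPM1 differed by 0.16 when its features were averaged and no longer passed, which left 8 members. At an adjusted p below 0.01, 3930 genes and 6 members passed. Leaving out 1 array gave 5 to 7 members higher and 6 to 8 past the threshold, 4590 to 4984 genes and 53 to 58 genes of the 9 lists, against 63 with all arrays. The replicate block left LCP1 at 4.65 and TPM1 at 0.30, with 5215 genes past the threshold, against 5293 without it, and all 9 members among them. The median of all genes stayed within -0.0117 to 0.0402 under each scaling. Of genes that did not pass, CPB2 changed sign under the second quantile normalization (-0.0166) and cyclic loess (-0.0209), and SIAH3 under centring on the 75th percentile (0.0212). Leaving out 1 array gave CPB2 values of -0.0649 to 0.0917, SIAH3 of -0.0929 to 0.0473, PLXDC2 of -0.135 to 0.00853 and TMEM236 of -0.196 to 0.00162. LRCH1 passed under the second quantile normalization, cyclic loess and the trended prior (adjusted p of 0.0351 to 0.0438), and TLN1 without SW620 replicate 3 (0.0298). The cause was not tested. Unprocessed intensities were not used here, so the background step was not varied.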
